A study of Mus musculus with 6 samples.

Results

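The transcription factor gene Irf1 and the chemokine genes Cxcl9 and Cxcl10 were taken from the deposited table by their symbols, 3 of the 559 genes listed. The table comes from purified natural killer (NK) cells, innate lymphocytes with killing activity, from the spleens of C57BL/6 mice. In the OA group the cells were kept for 36 h with oleic acid (OA) at 0.2 mM, a fatty acid with a single double bond, and in the control group without it, with 3 libraries per group. No gene was altered in either group. Per the labels the treatment was carried out a single time, and nothing says that the libraries came from separate animals, so the p-values below measure only the spread between these libraries, which may be technical. The comparison asks how gene expression in NK cells differs with OA.

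IRF1 is a transcription factor induced when interferon gamma binds its receptor, and it then helps switch on further genes of the response. CXCL9 and CXCL10 are chemokines induced by interferon gamma that draw T cells and NK cells through the receptor CXCR3. NK cells are themselves a main source of interferon gamma, the product of Ifng, while CXCL9 is known mostly from macrophages and dendritic cells exposed to it. Each of the 3 genes is therefore set beside Ifng.

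Levels are in TPM, a unit of relative transcript abundance that corrects for transcript length, so that levels can be compared between genes. The depth of the libraries is unknown. In bulk RNA, fewer cells of a type and less RNA per cell cannot be told apart. The table holds genes with Q under 0.05 in the authors' own test, and these made up between 12.2% and 12.6% of the TPM scale in a library. Of genes that it leaves out (not listed), nothing is known here, including whether they changed. Because the table was selected on the same libraries, 76.0% of its genes passed the limma test used here, 40.1% lower and 36.0% higher in OA. The adjusted p-values below cover only these preselected genes. They do not control the error over all genes measured and are not an independent check of the authors' calls.

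Positions are those of RefSeq on GRCm38, the assembly behind mm10. Irf1 (gene ID 16362) lies on the plus strand of chromosome 11, from 53770014 to 53778374. Cxcl9 (gene ID 17329) and Cxcl10 (gene ID 15945) are neighbours on the minus strand of chromosome 5, from 92321331 to 92328079 and from 92346638 to 92348889, with 18.6 kb between them. Cxcl11, the gene of the other CXCR3 ligand, starts 10.7 kb beyond Cxcl10 and is annotated as a transcribed pseudogene in this C57BL/6 assembly. It is not listed, nor is Cxcr3. On the opposite strand, Art3 shares 133 of the 2252 exonic bases of Cxcl10, and the gene model Gm17334 shares 135 of the 3976 of Irf1 in GENCODE M21. Neither is listed. Ifng, on chromosome 10, shares 336 of its 1295 exonic bases with the unlisted gene model Gm49751 on the same strand. Whether the counting used strand is not given in the sources used here, so reads from these stretches cannot be assigned with certainty.

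The promoters of the 3 genes are shown because all were lower in OA and are textbook targets of interferon gamma or of the pathways that act with it. Each sequence gives the 250 bases before the RefSeq start site (GRCm38.p6), 5′ to 3′ on the gene's own strand, at chr11:53769764-53770013 for Irf1 (the first of its 2 listed start sites), chr5:92328080-92328329 for Cxcl9 and chr5:92348890-92349139 for Cxcl10. Capitals mark matches, on either strand, to the IRF site ISRE (GAAA, any 2 bases, GAAA) or the NF-kB consensus.
Irf1: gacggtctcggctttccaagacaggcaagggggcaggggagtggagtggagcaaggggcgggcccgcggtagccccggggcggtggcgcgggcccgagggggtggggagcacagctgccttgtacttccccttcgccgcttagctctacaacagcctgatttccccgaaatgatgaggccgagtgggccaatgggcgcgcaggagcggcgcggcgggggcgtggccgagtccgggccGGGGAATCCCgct
Cxcl9: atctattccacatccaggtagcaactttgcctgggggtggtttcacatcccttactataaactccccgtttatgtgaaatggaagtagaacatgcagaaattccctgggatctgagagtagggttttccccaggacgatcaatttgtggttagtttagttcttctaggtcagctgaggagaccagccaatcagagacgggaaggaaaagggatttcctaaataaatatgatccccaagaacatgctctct
Cxcl10: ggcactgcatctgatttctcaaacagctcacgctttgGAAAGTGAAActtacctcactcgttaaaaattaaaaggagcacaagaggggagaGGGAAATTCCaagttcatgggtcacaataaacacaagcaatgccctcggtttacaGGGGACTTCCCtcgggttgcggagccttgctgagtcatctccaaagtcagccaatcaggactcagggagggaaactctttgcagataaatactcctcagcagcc

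The Irf1 window held an NF-kB match 13 to 4 bases before the start. The Cxcl10 window held an ISRE 213 to 204 bases before the start and 3 NF-kB matches, of which 2 overlap (104 to 95 and 103 to 94 bases before the start). The Cxcl9 window held no match to these letters. Such matches are not rare: over the first and any further start sites of a gene, 3.46% of the 27025 genes with a promoter entry held an ISRE and 8.23% an NF-kB match. Among the listed genes with a promoter entry, an ISRE stood in 24 of 168 genes that fell (14.3%) and in 6 of 153 that rose (3.92%). An NF-kB match stood in 11.3% of the genes that fell and 17.0% of those that rose. These shares are descriptions and were not tested.

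Irf1, Cxcl9 and Cxcl10 were all lower in OA, by amounts that ranged from a small shift in Irf1 to more than a halving in Cxcl9. All 3 fell in the limma test, where 40.1% of the listed genes fell. In none of the 3 did the libraries of the groups overlap, which was so for 48.5% of the listed genes in the same direction and 45.1% in the other. Ifng fell as well, with no overlap.

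Irf1 stood at 407, 386 and 353 TPM in OA replicates 1, 2 and 3, against 453, 448 and 499 TPM in control replicates 1, 2 and 3. Every OA library was below every control library, with OA replicate 3 the lowest and control replicate 3 the highest. The mean fell to 382 ± 27.4 TPM in OA, against 467 ± 28.1 TPM in control (SD, n = 3 each), a ratio of 0.818. In limma the log2 fold change was −0.29 (SE 0.0786, 95% confidence interval −0.49 to −0.09, adjusted p = 0.0305). Irf1 was the steadiest of the 3 genes, with a coefficient of variation of 7.17% in OA and 6.02% in control. Its change was also smaller than the median absolute change of 0.35 over all listed genes.

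Cxcl9 was a low transcript, at 11.7, 8.99 and 5.73 TPM in OA replicates 1, 2 and 3, against 16.9, 16.9 and 27.7 TPM in control replicates 1, 2 and 3. The OA libraries spread over a 2.04-fold range and the control libraries over a 1.64-fold range. Control replicate 3 stood well above the other control libraries, which were almost equal. The mean fell to 8.81 ± 2.99 TPM in OA, against 20.5 ± 6.24 TPM in control (SD, n = 3 each), a ratio of 0.430. The log2 fold change was −1.14 (SE 0.307, 95% confidence interval −1.92 to −0.37, adjusted p = 0.0301, limma). By size this was the third most negative of the 559 genes.

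Cxcl10 stood at 124.5, 108.8 and 95.5 TPM in OA replicates 1, 2 and 3, against 156.9, 136.1 and 205.2 TPM in control replicates 1, 2 and 3. The groups came close to each other: the lowest control library was 1.09-fold above the highest OA library, less than the spread within either group, which reached 1.51-fold among the control libraries. For Cxcl9 the same gap was 1.44-fold, also less than the spread within either of its groups. In Irf1 the groups came close too, with 407 TPM in OA replicate 1 and 448 TPM in control replicate 2. The mean of Cxcl10 fell to 109.6 ± 14.5 TPM in OA, against 166 ± 35.5 TPM in control (SD, n = 3 each), a ratio of 0.660. The log2 fold change was −0.58 (SE 0.182, 95% confidence interval −1.04 to −0.12, adjusted p = 0.0372, limma).

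**Figure D1:**
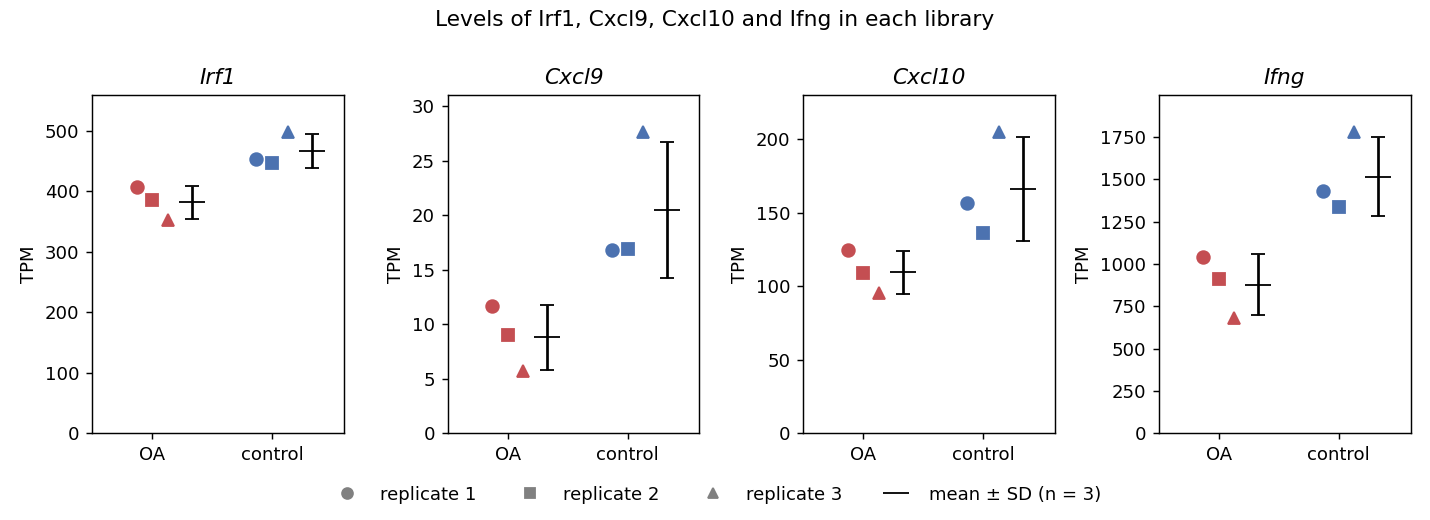
Level in TPM (vertical axes, from 0) of Irf1, Cxcl9, Cxcl10 and Ifng in the OA and control libraries. Symbols are libraries by replicate number, and the bar beside them is the mean ± SD of 3 libraries. Each OA library lies below each control library in all 4 panels, with OA replicate 3 lowest and control replicate 3 highest.

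In level the order was Irf1, Cxcl10, Cxcl9 in each of the 6 libraries, with no overlap between genes in either group. Irf1 was 3.27 to 3.70 times as high as Cxcl10 in OA libraries and 2.43 to 3.29 times in control libraries. In the authors' deposited table the log2 fold changes were −0.28 for Irf1, −1.21 for Cxcl9 and −0.59 for Cxcl10. There the smallest change carried the smallest Q value, 8.27e-05 for Irf1, against 0.00116 for Cxcl10 and 0.0392 for Cxcl9.

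The calls of the 3 genes rested on most of the libraries. None of the 3 passed without OA replicate 2, control replicate 1, control replicate 2 or control replicate 3 (adjusted p from 0.0507 to 0.0894, limma), and Cxcl10 also did not pass without OA replicate 3 (adjusted p = 0.0687) or without replicate 3 of both groups (adjusted p = 0.0666). The loss ran through the table. Of all listed genes 224 fell with all libraries, against 0 without OA replicate 2 or control replicate 1. There were 13 without control replicate 2, 30 without control replicate 3, 138 without OA replicate 3 and 191 without replicate 3 of both groups. With the libraries scaled to equal medians, Irf1 and Cxcl10 did not pass (adjusted p = 0.0550 for each) and Cxcl9 did (adjusted p = 0.0401). That scaling gave 162 genes higher and 82 lower over the table, against 201 higher and 224 lower with the values as deposited. Without replicate 3 of both groups the log2 fold change was −0.18 for Irf1, −0.67 for Cxcl9 and −0.33 for Cxcl10, 1.5 times or more closer to 0 than with all libraries.

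Ifng stood at 1043, 911 and 683 TPM in OA replicates 1, 2 and 3, against 1433, 1335 and 1783 TPM in control replicates 1, 2 and 3. Its log2 fold change of −0.80 (SE 0.195, adjusted p = 0.0281, limma) lay between those of Cxcl10 and Cxcl9. The 3 genes and Ifng had the same order of libraries almost throughout. Among the OA libraries Ifng, Irf1, Cxcl9 and Cxcl10 were all highest in replicate 1 and lowest in replicate 3. Among the control libraries all 4 were highest in replicate 3. Of the 6 pairs of libraries within a group, Irf1 and Cxcl10 were ordered as Ifng in 6 and Cxcl9 in 5, the exception being control replicates 1 and 2, where Cxcl9 was almost equal.

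This order was common in the table. All 6 pairs were ordered as in Ifng for 21.7% of the other 558 genes, at least 5 pairs for 41.0%, and all 6 for 45.7% of the 223 others that fell. In Ifng and the 3 genes the groups did not overlap, and 3 libraries are too few for a correlation within a group. No correlation is therefore given, and beyond this order the relation to Ifng was not tested. Over all listed genes, OA replicate 1 lay nearer to control replicates 1 and 2 than to OA replicate 3. The median absolute log2 differences were 0.192, 0.177 and 0.201 in that order.

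**Figure D2:**
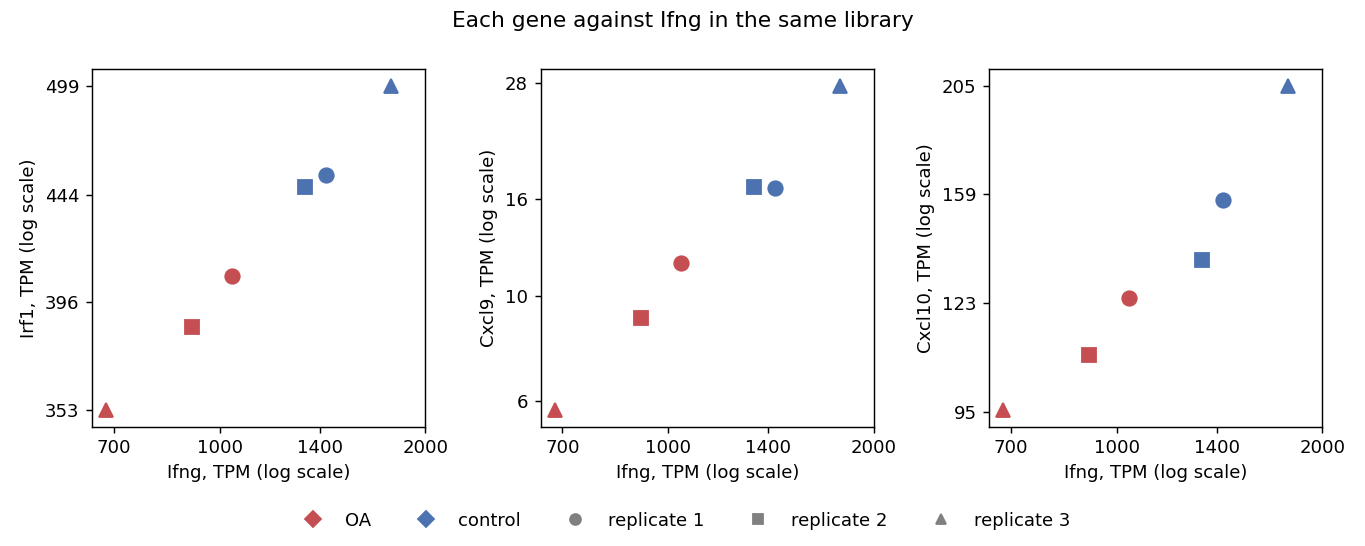
Level of Irf1, Cxcl9 and Cxcl10 (vertical axes, TPM, log scale) against the level of Ifng (horizontal axes, TPM, log scale) in the same library. Colours are groups and symbols are replicate numbers. The 3 OA libraries lie at the lower left in every panel, from 683 to 1043 TPM of Ifng, and the control libraries at the upper right.

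The amounts by which the genes changed were compared as ratios within each library. Irf1 amounted to 0.390, 0.423 and 0.517 of the Ifng level in OA replicates 1, 2 and 3, against 0.316, 0.335 and 0.280 in control replicates 1, 2 and 3. The ratio was higher in every OA library than in any control library, since Irf1 changed less than Ifng. The mean log2 ratio differed by 0.51 (OA minus control).

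Cxcl9 went the other way. Per 1000 TPM of Ifng there were 11.2, 9.87 and 8.39 TPM of Cxcl9 in OA replicates 1, 2 and 3, against 11.8, 12.7 and 15.5 TPM in control replicates 1, 2 and 3, a difference of −0.44 in the mean log2 ratio. Cxcl10 kept closest to Ifng. It stood at 119.4, 119.4 and 139.8 TPM per 1000 TPM of Ifng in OA replicates 1, 2 and 3, against 109.5, 102 and 115.1 TPM in control replicates 1, 2 and 3, a difference of 0.21.

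Between the chemokines, Cxcl9 amounted to 0.0940, 0.0827 and 0.0600 of the Cxcl10 level in OA replicates 1, 2 and 3, against 0.107, 0.124 and 0.135 in control replicates 1, 2 and 3. The groups did not overlap, and the mean log2 ratio differed by −0.65. The ratio of Irf1 to Cxcl10 did overlap between the groups, with a difference of 0.30. In the exact permutation test, two-sided, p was 0.10 for the first 4 ratios, the smallest that 3 against 3 libraries can give, and 0.20 for Irf1 to Cxcl10. Adjusted over the 5 ratios the values were 0.125 and 0.20, and this test cannot reach 0.05 with 3 libraries per group.

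The libraries also differed in markers of NK cells and of other cells, and the 3 genes are known to be expressed in several of these. Of 13 NK markers 11 were listed and all 11 fell, among them Ncr1, the NK receptor NKp46, at 105, 91.4 and 79.1 TPM in OA replicates 1, 2 and 3, against 128, 126 and 140 TPM in control replicates 1, 2 and 3. Their summed level ran from 2977 to 3821 TPM in OA libraries and from 4521 to 5392 TPM in control libraries. Klrb1c was not listed.

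Of 28 monocyte, macrophage and dendritic cell markers 8 were listed, of which 6 rose and 2 fell. Their sum ran from 1897 to 1965 TPM in OA libraries and from 1543 to 1740 TPM in control libraries. Cd14, the lipopolysaccharide co-receptor of monocytes and macrophages, stood at 617, 661 and 688 TPM in OA replicates 1, 2 and 3, against 469, 495 and 378 TPM in control replicates 1, 2 and 3. Both listed markers that fell, Ly6c2 and Ccr2, are counted here as markers of inflammatory monocytes. Which cells any of the 8 came from, Itgam among those that rose included, was not tested. Csf1r and Lyz2, defining markers of macrophages, were not listed.

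Of the B lineage markers 6 were listed and 5 rose, their sum running from 503 to 592 TPM in OA libraries and from 323 to 403 TPM in control libraries. Of 12 T cell markers 2 were listed, Cd28 and Icos, and both fell. The Cd3, Cd4, Cd8 and T cell receptor genes of that list were not listed. Mmp8 and Mmp9, counted here as neutrophil genes, rose, and the basophil gene Mcpt8 fell. The 12 listed heart muscle genes summed to 46.7, 460 and 6285 TPM in OA replicates 1, 2 and 3, against 32.1 to 55.2 TPM in control libraries, and none of them passed. Col3a1, from the stromal list, was at 0.50 to 2.81 TPM in OA libraries and 0.23 to 0.30 TPM in control libraries and missed the threshold. The part of these transcripts and cells in the changes of Irf1, Cxcl9 and Cxcl10 was not tested.

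Set against the NK markers, Irf1 had the opposite direction. Per 1000 TPM of the 11 listed NK markers there were 106.5, 107.4 and 118.5 TPM of Irf1 in OA replicates 1, 2 and 3, against 98.6, 99.0 and 92.5 TPM in control replicates 1, 2 and 3. The OA libraries were all above the control libraries, by a mean log2 difference of 0.20. Against each of the 11 markers taken alone the mean log2 difference was also above 0, from 0.06 (Il2rb) to 0.38 (Gzma), with overlap between the groups not recorded.

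Cxcl9 was lower on the same measure, at 3.06, 2.50 and 1.92 TPM per 1000 in OA replicates 1, 2 and 3, against 3.67, 3.74 and 5.14 TPM in control replicates 1, 2 and 3. Its mean log2 difference was −0.75, and the groups did not overlap. Cxcl10 overlapped, at 30.3 to 32.6 TPM per 1000 in OA libraries and 30.1 to 38.1 TPM in control libraries, with a mean log2 difference of −0.10. Taking each marker alone, Cxcl9 was lower against all 11, from −0.89 (Il2rb) to −0.57 (Gzma). Cxcl10 was lower against 10 and higher against 1, from −0.24 (Il2rb) to 0.08 (Gzma). Overlap between the groups was not recorded for single markers. So of the 3 genes only Cxcl9 was lower in OA relative to the summed NK markers without overlap. Ifng was lower on that measure too, by a mean log2 difference of −0.31 and without overlap. The NK markers were listed because they changed in these libraries, so these ratios are descriptions and carry no test.

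Set against the 8 listed myeloid markers all 3 genes were lower in OA, with no overlap. This follows from the values above and adds no evidence. Each gene was lower, and the sum of these markers higher, in every OA library than in any control library. These markers too were listed because they changed in these libraries, so the ratios are descriptions. Per 1000 TPM of these markers Irf1 averaged 197 ± 17.1 TPM in OA and 284 ± 34.8 TPM in control, Cxcl10 averaged 56.6 ± 8.47 TPM in OA and 101.8 ± 28.2 TPM in control, and Cxcl9 averaged 4.56 ± 1.62 TPM in OA and 12.6 ± 4.65 TPM in control (SD, n = 3 each).

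**Figure D3:**
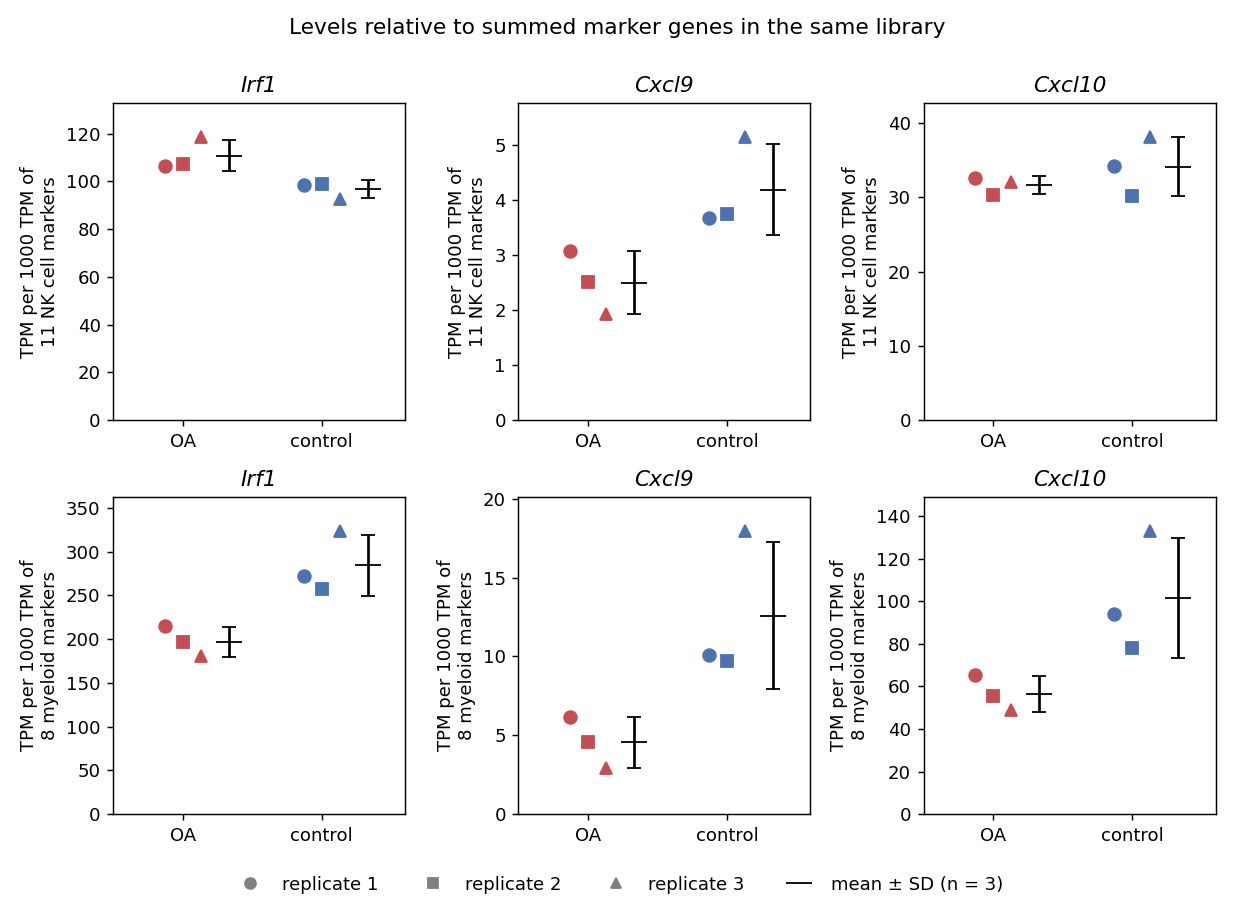
Level of Irf1, Cxcl9 and Cxcl10 per 1000 TPM of the listed NK cell markers (upper panels) and of the listed monocyte, macrophage and dendritic cell markers (lower panels), in OA and control libraries. Symbols are libraries by replicate number and bars are mean ± SD of 3 libraries. Per NK marker Irf1 is higher in all 3 OA libraries, Cxcl9 is lower and Cxcl10 overlaps. Per myeloid marker all 3 genes are lower in OA, which follows from their lower levels and the higher marker sum.

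Other genes of the interferon pathways were mostly lower too. From 9 lists, which hold genes upstream of Ifng, genes of the response to interferon gamma and 42 type I interferon-stimulated genes, 136 symbols other than the 3 genes were looked up and 40 were listed, of which 32 fell, 2 rose (Il12a and Dpp4) and 6 did not pass. Their median log2 fold change was −0.31, against 0.14 over all listed genes. With all libraries, 224 of the 559 genes of the table fell. Without OA replicate 3, 14 of the 40 fell, where 138 of the 559 did. Without control replicate 3, 6 fell, where 30 did over the table, and without control replicate 2, 2 fell, where 13 did. Without OA replicate 2 or control replicate 1 no gene of the table was called, and 168 were lower at an unadjusted p under 0.05 in each case (limma). With libraries scaled to equal medians 11 of the 40 fell, where 82 did over the table.

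Upstream of the 3 genes, the receptors for the cytokines that make NK cells produce interferon gamma fell. Il12rb1 and Il12rb2, the chains of the interleukin-12 receptor, fell by 0.34 and 0.53 on the log2 scale, and Il18r1 and Il18rap, the chains of the interleukin-18 receptor, by 0.42 and 0.32 (adjusted p from 0.0278 to 0.0414, limma). Il12a, which encodes a chain of interleukin-12 itself, rose to 411 ± 7.42 TPM in OA, against 350 ± 25.3 TPM in control. Of the receptor and signalling genes, Ifngr1 and Ifngr2 were not listed. Socs1, an inhibitor of JAK signalling that interferon gamma induces, fell to 322 ± 21.6 TPM in OA, against 385 ± 10.9 TPM in control. Socs3, a related inhibitor, averaged 339 ± 8.65 TPM in OA and 313 ± 7.02 TPM in control and did not pass (adjusted p = 0.0627, limma).

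Among the 12 genes of the list of IRF factors and interferon-induced regulators, 3 were listed. Beside Irf1, Batf2, a factor induced in macrophages by interferon gamma, fell to 28.9 ± 4.52 TPM in OA, against 50.9 ± 6.01 TPM in control (log2 −0.80, adjusted p = 0.0260, limma). Nlrc5, the activator of MHC class I genes, averaged 80.5 ± 7.01 TPM in OA and 97 ± 8.87 TPM in control and did not pass (adjusted p = 0.0514, limma). Ciita, the activator of MHC class II genes, was not listed, and neither was any of 10 MHC class II pathway genes. Of the MHC class I pathway list, 4 of 17 genes were listed and 3 fell, H2-Q4, H2-T23 and Psme2, by 0.13 to 0.19 on the log2 scale.

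Downstream, all 11 listed interferon-induced GTPases of 18 looked up fell, where 40.1% of all listed genes fell. Their median log2 fold change was −0.35, against −0.32 over all listed genes that fell. Gbp2, a guanylate-binding protein, fell by 0.41 on the log2 scale, more than Irf1. Irgm1, an immunity-related GTPase, fell by 0.28, close to the change of Irf1. Of 20 other genes induced through IRF1 or by interferon gamma, 6 were listed, 5 fell and Socs3 did not pass. Nos2, the inducible nitric oxide synthase that macrophages make through IRF1, stood at 72.9, 63.8 and 46.6 TPM in OA replicates 1, 2 and 3, against 99.9, 99.2 and 140.4 TPM in control replicates 1, 2 and 3 (log2 −0.88, adjusted p = 0.0282, limma). Control replicate 3 was again the highest library and OA replicate 3 the lowest. Of 42 type I interferon-stimulated genes, 10 were listed and 7 fell, among them Ifi205 by 0.68, Rtp4 by 0.49 and Isg15 by 0.33 on the log2 scale.

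Another group of CXC chemokine genes on chromosome 5 mostly had the opposite direction, where 36.0% of all listed genes rose. CXC chemokines with an ELR motif attract neutrophils through CXCR2, and their genes lie in a separate cluster whose nearest listed member, Cxcl2, ends 1.42 Mb before Cxcl9. Of its listed genes, Cxcl1, Cxcl2, Cxcl3 and Cxcl5 rose by 1.23, 0.97, 1.16 and 0.44 on the log2 scale (adjusted p from 0.0260 to 0.0282, limma), and Ppbp did not pass (adjusted p = 0.0514, limma).

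**Figure D4:**
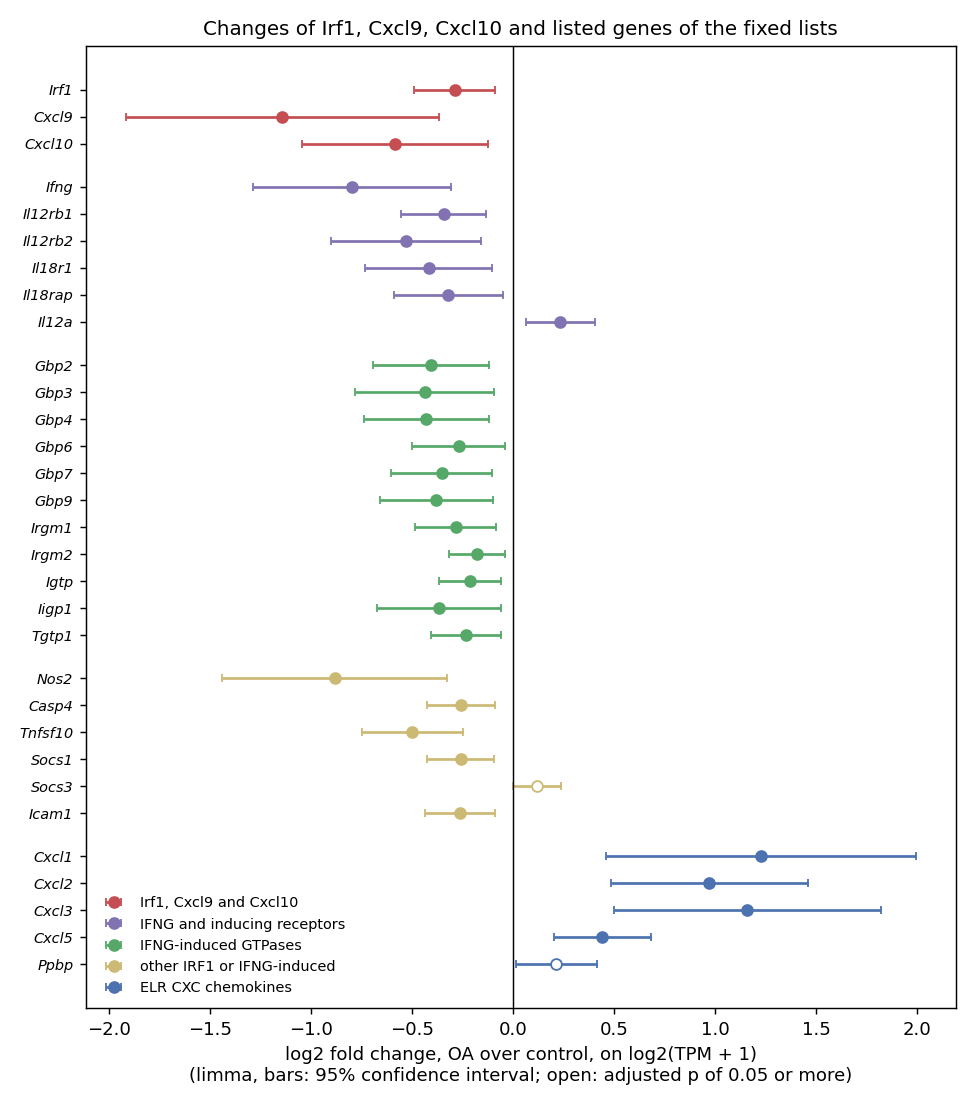
Log2 fold change of OA over control on log2(TPM + 1) (horizontal axis) with its 95% confidence interval from limma, for Irf1, Cxcl9, Cxcl10 and listed genes of the fixed lists (vertical axis). Filled points passed at an adjusted p under 0.05. Cxcl9 has the most negative value shown, −1.14, Irf1 lies among the GTPases, and the ELR chemokines lie above 0.

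The genes whose pattern was most like each of the 3 were found by the root mean square difference of log2(TPM + 1) over the 6 libraries, after centring each gene on its own mean, among 546 named genes. Nearest to Irf1 were Arid5a (0.0123), Atp10a (0.0141), Bcl2 (0.0160), Ccdc88c (0.0165) and Traf4 (0.0171). For Irf1 many genes lay close, and Ifng came at rank 308 with a difference of 0.291. Genes were centred but not scaled, so the size of a change enters this difference as well as the order of libraries. Irf1 was ordered as Ifng in all 6 within-group pairs. Nearest to Cxcl10 were Il13 (0.0730), Oas3 (0.0732), Gzma (0.0805), C1s1 (0.0819) and Gzmb (0.0848), which include granzyme genes of the killing granules. For Cxcl10, Ifng came at rank 34 with a difference of 0.141. Nearest to Cxcl9 were Nos2 (0.165), Il17f (0.202), Ifng (0.222), Unc5c (0.228) and Calhm6 (0.234). No gene lay as close to Cxcl9 as the fifth nearest did to Irf1 or Cxcl10. Cxcl10, its neighbour on the chromosome, came at rank 14 with a difference of 0.334.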

How the data were processed

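RNA was sequenced from 6 libraries of splenic NK cells, 3 kept with OA and 3 without, grouped by the treatment in their labels. Per the submitters' processing notes, the tools were Bowtie2, RSEM 1.3.1 and DESeq2 1.4.5 and the genome was mm10, with no step given for any of them; the annotation and filters are not given in the sources used here. Per the file headers, the deposited table gives TPM by library and the authors' group means. Beside them stand the P value, Q value and log2 fold change by the authors for each of 559 genes. TPM keeps no read numbers, so depth and counting error are unknown.

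From these, log2(TPM + 1) of all 559 genes was fitted without filter or covariate in limma (version 3.58.1, R version 4.3.3), and p-values were adjusted by Benjamini-Hochberg over the whole table. On this scale the fold changes of low genes are understated. Ratios between genes were formed from TPM within each library and compared by exact permutation over libraries. The limma code was tested on simulated data with independent noise in each gene, which does not cover shifts that genes of a library share. Genes were named by rule: Irf1, Cxcl9, Cxcl10 and Ifng, a set named always, the genes of lowest adjusted p on each of 18 gene lists (4 at most), and the 5 genes nearest to each of the 3 genes. Not every gene the rule names is described. Where a small count fell outside the rule, its genes were named after their values were seen, as were the receptor genes beyond 4 on their list. The 3 genes, the lists and the tests were chosen with earlier results of these data known. Positions and promoter sequences are from RefSeq on GRCm38.p6, overlaps from GENCODE M21. Alternatives tried were other pseudocounts, a level filter, equal medians, a prior with an intensity trend, a replicate block, and leaving out libraries. Tables, ratios and figures were made in Python 3.11.15 with scipy 1.17.1, matplotlib 3.10.9 and pandas 2.3.3. A planned comparison of the chemokine proteins was not run, and 1 planned promoter motif is not reported here.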

Additional observations from a re-analysis of the deposited data

How the results depend on the processing

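Irf1, Cxcl9, Cxcl10 and Ifng were lower in OA under all 13 alternatives for each gene. As their groups do not overlap, leaving out libraries or changing the pseudocount could not turn the sign. The level filter, the prior and the replicate block leave the log2 value as it was. The genes passed in 7 (Irf1), 8 (Cxcl9), 5 (Cxcl10) and 8 (Ifng) of the 13 alternatives. With libraries scaled to equal medians Irf1 (log2 −0.30) and Cxcl10 (−0.59) did not pass, and 82 genes were lower and 162 higher; the medians moved the comparison by 0.01. The replicate numbers are shared between the groups, but the deviations of same-numbered libraries correlated at 0.33, −0.11 and −0.08, and OA replicates 2 and 3 did not correlate best with their own number, so the numbers were not read as pairs. With the replicate block the log2 values stayed at −0.29 (Irf1), −1.14 (Cxcl9), −0.58 (Cxcl10) and −0.80 (Ifng), with adjusted p from 0.115 to 0.119, and 0 genes were called lower and 0 higher (89 and 149 at an unadjusted p under 0.05, limma). Leaving out 1 library gave log2 values from −0.34 to −0.23 for Irf1, −1.35 to −0.89 for Cxcl9, −0.72 to −0.42 for Cxcl10 and −0.93 to −0.63 for Ifng, and from 0 to 187 genes lower and 0 to 177 higher. Without replicate 3 of both groups the values were −0.18, −0.67, −0.33 and −0.50 in the same order, with 191 genes lower and 190 higher. None was called without OA replicate 2 (168 lower and 159 higher unadjusted) or without control replicate 1 (168 and 171). The cause of these losses was not tested. The 5 ratios between genes kept their sign under every alternative tried, from 0.39 to 0.59 for Irf1 to Ifng, −0.54 to −0.32 for Cxcl9 to Ifng, 0.13 to 0.25 for Cxcl10 to Ifng, −0.79 to −0.46 for Cxcl9 to Cxcl10 and 0.18 to 0.40 for Irf1 to Cxcl10. All except Irf1 to Cxcl10 had no overlap between the groups, so leaving out libraries could not turn their sign. The replicate block cannot change a mean difference when each number occurs in both groups. Depth is unknown, so the counting error of Cxcl9, the lowest of the 3, cannot be given.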
